A study of Mus musculus with 6 samples.

Results

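The 10 genes described here belong to fibroblast growth factor (FGF) signalling and were followed in the inguinal subcutaneous white adipose tissue (SC-WAT) of mice with and without *Egr1*. They are the ligand genes *Fgf1*, *Fgf2*, *Fgf7*, *Fgf10* and *Fgf21*, the receptor genes *Fgfr1*, *Fgfr2*, *Fgfr3* and *Fgfr4*, and *Klb*, which encodes the co-receptor beta-Klotho. The genes were taken by name, through the Ensembl identifiers of the count tables and the GENCODE symbols of GRCm38. All 10 were found among the 47069 genes of the tables, and 8 of them had enough counts for a test, as did 17667 genes in all. *Fgfr4* and *Fgf21* had too few counts and are given as counts only.

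RNA came from the fat pads of female mice killed at 2 weeks of age, 3 *Egr1*+/+ (wild-type) and 3 *Egr1*-/- mice, with 1 library for each mouse. All were labelled C57BL/6, and no treatment is named. The *Egr1*-/- mice carry, in every cell, a *LacZ* insertion and a frameshift in *Egr1*, the gene of a zinc finger transcription factor that growth factor signals switch on. Both genotypes were born from heterozygous parents, in 4 litters, and only 1 mouse of each genotype is said to have shared a litter with the other, so the mice of a genotype may not be fully independent. Between 29661984 and 42357981 reads per mouse fell on genes, and genes of the mitochondrial chromosome held between 50.0% and 66.3% of them. Both highest values, 42357981 reads and 66.3%, were those of *Egr1*-/- replicate 1. *Egr1* itself had 353, 241 and 711 counts in the wild-type libraries, and 103, 84 and 57 in those of the mutants, so no library went against its label. Its log2 fold change was -2.19, with an adjusted p of 0.0878 by edgeR. The 10 markers of mature adipocytes, among them *Adipoq* and *Plin1*, were read in every mouse, and the tissue label was not contradicted.

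FGFs are secreted proteins that bind receptor tyrosine kinases together with heparan sulfate at the cell surface, and the signal runs through the adaptor FRS2 to RAS and the kinase ERK. Most FGFs, such as those of *Fgf1*, *Fgf2*, *Fgf7* and *Fgf10*, act close to where they are made, whereas FGF21 is a hormone, made mainly by the liver, that needs beta-Klotho beside FGFR1 to act on adipocytes. In fat, FGF1 is known for tissue remodelling under a rich diet, FGF10 for the growth of preadipocytes, and FGF21 for thermogenic activation, and the *Egr1* gene is itself a classical early target of ERK. The comparison asks whether the FGF genes of the tissue differ when *Egr1* is absent. Levels are given in CPM, counts per 1000000 of the library size after scaling by the TMM factors of edgeR, and, where genes are set against each other, in CPM per kilobase of merged exons.

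In *Egr1*-/- SC-WAT the 4 ligand genes with a measurable level were lower on average than in *Egr1*+/+ SC-WAT, *Fgf2* most clearly, while *Fgfr1*, *Fgfr2* and *Klb* stayed closer to the control level and the scarce *Fgfr3* was higher. *Fgf2* averaged 35.7 ± 5.11 CPM in *Egr1*+/+ mice and 22.5 ± 3.93 CPM in *Egr1*-/- mice, and *Fgfr3* 1.79 ± 0.325 and 2.68 ± 0.577 CPM (SD, n = 3 mice in each genotype). By the quasi-likelihood test of edgeR, none of the 8 tested genes had an adjusted p under 0.05, and 3 of all 17667 did, or 0.017%. At an unadjusted p under 0.05 there were 3 lower genes (*Fgf1*, *Fgf2* and *Fgf7*) and 1 higher gene (*Fgfr3*) among the 8, against 5.6% and 5.06% of all genes tested. In the 8 genes 7 log2 fold changes were below 0, with a median of -0.25, while over all genes tested 49.9% were below 0 and the median was 0.0011.

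**Figure D1:**
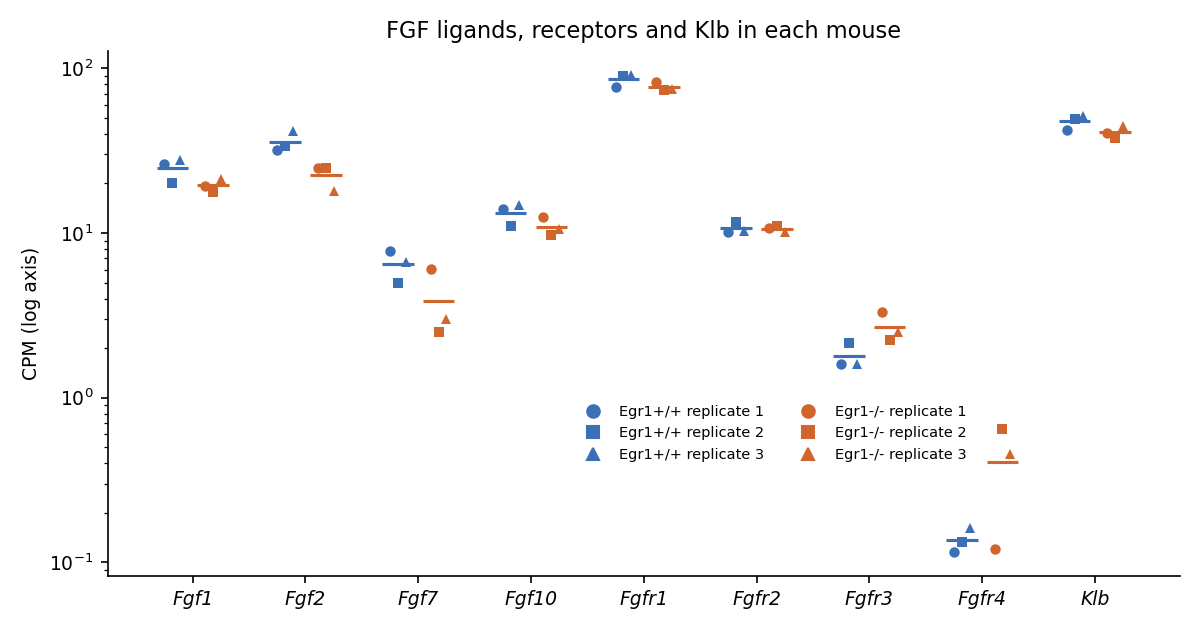
Level of 9 of the 10 genes in each mouse, in CPM on a log axis, with *Egr1*+/+ mice in blue, *Egr1*-/- mice in orange, a symbol for each replicate number and a bar at the mean of each genotype. *Fgf21*, with 3 counts in all 6 libraries together, is not drawn, and the genotypes are apart only in *Fgf2* and *Fgfr3*.

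The genes spanned a wide range of levels in this tissue. Per kilobase of merged exons, *Klb* and *Fgfr1* came first, with means over the 6 mice of 9.75 and 8.27 CPM per kilobase, above 88.9% and 86.5% of the genes tested. *Fgf2* (4.29), *Fgf1* (4.05), *Fgf10* (2.63), *Fgf7* (1.59) and *Fgfr2* (1.03 CPM per kilobase) followed, and *Fgfr3* (0.312), *Fgfr4* (0.0767) and *Fgf21* (0.0162 CPM per kilobase) came last. *Klb* stood above *Fgfr1* in 6 of 6 mice on this scale. That order depends on the length used, since per kilobase of the longest annotated transcript *Fgfr1* had 16.2 and *Klb* 12.5 CPM per kilobase. *Fgf2* was above *Fgf1*, and *Fgf7* above *Fgfr2*, in only 4 of 6 mice, so neither order held in every mouse. The longest transcript turns both orders. *Fgf7* averaged 1.99 ± 0.432 CPM per kilobase in *Egr1*+/+ mice and 1.19 ± 0.586 in *Egr1*-/- mice (SD, n = 3). *Fgfr2* averaged 1.03 CPM per kilobase in both genotypes. *Fgfr4* was above *Fgf21* in 5 of 6 mice, and every other neighbour in the order kept its place in 6 of 6.

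*Fgf2* (ENSMUSG00000037225.13; GRCm38 chr3:37348346-37410108, plus strand) encodes basic FGF, a ligand without a signal peptide that binds several FGF receptors and acts on stromal and vascular cells. Reads on *Fgf2* numbered 1090, 1019 and 1788 in *Egr1*+/+ replicates 1 to 3, and 826, 767 and 556 in *Egr1*-/- replicates 1 to 3. Scaled to the libraries this was 31.7, 33.9 and 41.5 CPM against 24.8, 24.8 and 18 CPM. Every *Egr1*-/- mouse was below every *Egr1*+/+ mouse, a separation that 8.1% of all genes tested showed in the same direction. The log2 fold change was -0.67 (standard error 0.160, 95% interval -1.03 to -0.30), which is 63.0% of the control level. Its p was 0.00244, the 195th lowest of 17667, and its adjusted p was 0.220 in edgeR. In DESeq2 the adjusted p was 0.0141, and *Fgf2* was the only one of the 8 genes called there, while DESeq2 called 2.89% of 12871 genes, 1.88% lower and 1.01% higher. An exact permutation test on the 6 CPM values gave a two-sided p of 0.1, the smallest that 3 mice against 3 allow.

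*Fgf2* shares 640 exonic bases, or 9.44% of its exons, with *Nudt6*, which is read from the opposite strand. The libraries were made with a strand-specific kit, but the strand setting used in counting is not given in the sources used here. *Nudt6* had 407 counts over the 6 mice and its mean went from 1.87 ± 0.396 to 2.17 ± 0.233 CPM (SD, n = 3 in each genotype). Per kilobase *Nudt6* had 1.12 ± 0.236 and *Fgf2* 5.27 ± 0.754 CPM per kilobase in the wild-type mice (SD, n = 3), and the differences between genotypes had opposite signs.

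The letters GCGTGGGCG and GCGGGGGCG, the consensus that the zinc fingers of EGR1 bind, were searched on both strands in the RefSeq promoter windows of GRCm38.p6, which reach from 250 bases before to 50 bases after a transcription start. Windows were held for 8 of the 10 genes. *Fgf1* and *Fgfr1* had none and were not searched. Of the 8 genes 2 had a match, *Fgf2* and *Fgfr3*, while 3.93% of all 27025 genes with a window had one. *Fgfr3* had it in 1 of its 2 windows. The genotypes did not overlap in *Fgf2* and *Fgfr3*, with differences of opposite sign, and a link between match and difference was not tested. The matches are shown with 10 bases on each side, read 5′ to 3′ on the strand that holds the match, with the consensus in capitals.
*Fgf2*, chr3:37348596-37348624, plus strand, 39 bases before the start: ggcgcgcgggGCGGGGGCGcacggggccg
*Fgfr3*, chr5:33721651-33721679, minus strand, 55 bases before the start: gcgtggtcagGCGGGGGCGccgggcggtc
The *Fgf2* match lies in an exon that GENCODE annotates as untranslated sequence of *Fgf2*, and the *Fgfr3* match lies upstream of *Fgfr3*, within an exon annotated to *G630022F23Rik*. Such a match describes the letters only, and binding was not measured here.

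*Fgf1* (ENSMUSG00000036585.15; GRCm38 chr18:38838673-38929472, minus strand) encodes acidic FGF, which binds all 4 FGF receptors. It had 26.1, 20.2 and 27.8 CPM in *Egr1*+/+ mice and 19.4, 17.8 and 21.4 CPM in *Egr1*-/- mice, so the lowest control lay inside the range of the mutants. The log2 fold change was -0.34 (standard error 0.145, 95% interval -0.67 to -0.016, adjusted p = 0.447 by edgeR). *Fgf1* lies on the chromosome of *Egr1*, 3.97 Mb from its end, so the absence of *Egr1* and any other difference carried along with the altered allele cannot be told apart for this gene. Distances from *Egr1* were not worked out for the pathway genes and nearest profiles named below, so the same limit may hold for some of them.

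*Fgf7* and *Fgf10* encode keratinocyte growth factor and its closest relative, ligands made by mesenchymal cells that bind mainly the epithelial form of FGFR2. *Fgf7* (ENSMUSG00000027208.14; chr2:126034658-126091185, plus strand) had 7.74, 4.96 and 6.68 CPM in *Egr1*+/+ mice and 6.03, 2.52 and 3.01 CPM in *Egr1*-/- mice. *Egr1*-/- replicate 1 stood within the control range and the other two mutants below it. The log2 fold change was -0.74 (standard error 0.325, 95% interval -1.48 to -0.010, adjusted p = 0.462 by edgeR). With 1 mouse left out it ran from -1.22, without *Egr1*-/- replicate 1, to -0.51, so the size of this difference depended on single mice. *Fgf10* (ENSMUSG00000021732.14; chr13:118669791-118792115, plus strand) had 14, 11.1 and 14.7 CPM in *Egr1*+/+ mice and 12.5, 9.72 and 10.5 CPM in *Egr1*-/- mice. Its groups overlapped, and its log2 fold change was -0.28 (standard error 0.156, 95% interval -0.63 to 0.072, adjusted p = 0.583 by edgeR).

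*Fgf21* (ENSMUSG00000030827.4; chr7:45613886-45615490, minus strand) was not counted once in any *Egr1*+/+ mouse, and had 2, 1 and 0 counts among the mutants. A count of 0 allows a level of up to 3 counts, which was between 0.0696 and 0.0999 CPM in these libraries, and no value of the mutants exceeded that range. No difference was detectable at this depth and no fold change is given. With or without *Egr1*, the transcript of this hormone was at the limit of detection in SC-WAT, while that of its co-receptor was the most abundant of the 10 per kilobase of merged exons.

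Added up per kilobase, the 5 ligand genes had 14.9, 12.6 and 16.5 CPM per kilobase in *Egr1*+/+ mice and 11.8, 9.82 and 9.77 CPM per kilobase in *Egr1*-/- mice. The genotypes did not overlap in this sum (two-sided p = 0.1 in the exact permutation test, its lower limit). Within the sum, *Fgf10* took 20.5%, 19.1% and 19.4% in *Egr1*+/+ mice and 23.0%, 21.5% and 23.4% among the mutants, and so held a larger part of the ligand transcripts in every mutant. The parts of *Fgf1*, *Fgf2* and *Fgf7* overlapped between the genotypes. The sum and the shares were chosen for description after the single values had been seen.

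**Figure D2:**
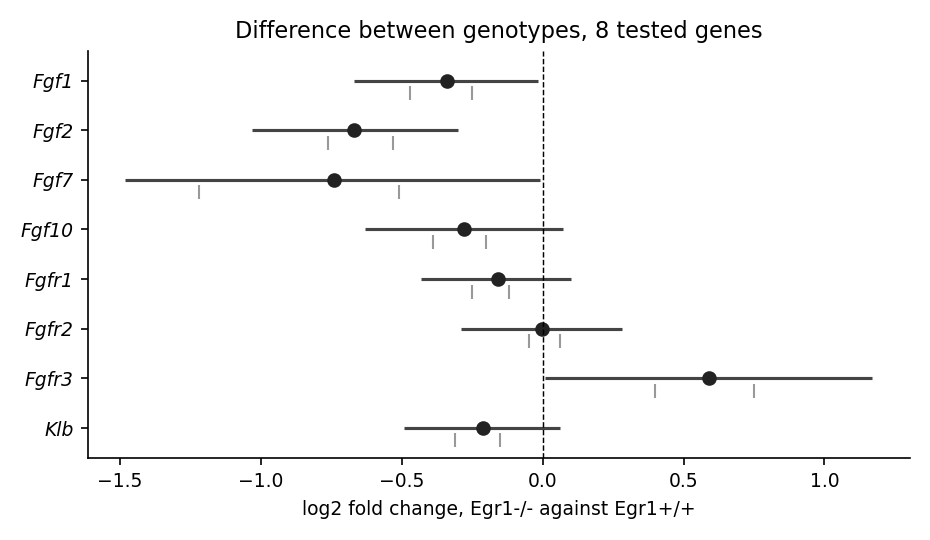
Log2 fold change of the 8 tested genes, *Egr1*-/- against *Egr1*+/+ mice, with points at the edgeR estimate, lines for the 95% interval and grey ticks for the lowest and highest estimate with 1 mouse left out. The estimates run from -0.74 in *Fgf7* to 0.59 in *Fgfr3*, and the interval of *Fgf2* lies farthest from 0.

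*Fgfr1* (ENSMUSG00000031565.17; chr8:25513654-25575718, plus strand) encodes the main FGF receptor of mesenchymal cells and adipocytes and the partner of beta-Klotho. It had 77.2, 90.0 and 91.5 CPM in *Egr1*+/+ mice and 82.6, 73.5 and 75.0 CPM in *Egr1*-/- mice. The groups overlapped, with a log2 fold change of -0.16 (standard error 0.118, 95% interval -0.43 to 0.10, adjusted p = 0.692 by edgeR). *Fgfr2* (ENSMUSG00000030849.17; chr7:130162451-133123350, minus strand), whose product in epithelia receives FGF7 and FGF10, had 10.1, 11.6 and 10.3 CPM in *Egr1*+/+ mice and 10.7, 11 and 10.1 CPM in *Egr1*-/- mice. Its log2 fold change was -0.0034 (standard error 0.127, 95% interval -0.29 to 0.28), with an adjusted p of 0.996 in edgeR. The counts are per gene, so the epithelial and mesenchymal splice forms of the receptors were not told apart. The annotation used here also gives *Fgfr2* 314 exonic bases in common with *Ctbp2* on the same strand. The merged exons of *Fgfr2* hold 10328 bases and its longest transcript 4429, so its level was 1.03 or 2.4 CPM per kilobase by the length used.

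*Fgfr3* (ENSMUSG00000054252.17; chr5:33721674-33737068, plus strand), best known for its role in cartilage, was counted 55, 65 and 69 times in the controls, and 111, 69 and 77 times in the mutants. In CPM these were 1.60, 2.16 and 1.60 against 3.33, 2.23 and 2.49. Every mutant was above every control, by a narrow margin between the highest control and the lowest mutant, and 8.15% of all genes tested were apart in that direction. The log2 fold change was 0.59 (standard error 0.257, 95% interval 0.0075 to 1.17, adjusted p = 0.462 by edgeR). With 1 mouse left out it ran from 0.40, without *Egr1*-/- replicate 1, to 0.75, without *Egr1*+/+ replicate 2. *Fgfr4* (ENSMUSG00000005320.9; chr13:55152640-55168759, plus strand), a receptor of liver and of growing muscle, was counted 4, 4 and 7 times in the controls, and 4, 20 and 14 times in the mutants. *Egr1*-/- replicate 1, at 0.120 CPM, was at the level of the controls, which had between 0.116 and 0.162 CPM, while replicates 2 and 3 had 0.646 and 0.453 CPM. An exact permutation test gave a two-sided p of 0.3. Skeletal muscle markers summed to 101, 351 and 2644 CPM in *Egr1*-/- replicates 1 to 3. In *Egr1*+/+ replicates 1 to 3 these markers summed to 1076, 3259 and 207 CPM, where *Fgfr4* had 0.116, 0.133 and 0.162 CPM. Lymphocyte markers summed to 664 CPM in *Egr1*-/- replicate 2 and to between 307 and 436 CPM in the other 5 mice, and the part of either cell type in the *Fgfr4* counts was not tested.

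The make-up of the receptor transcripts was compared within each library, which needs no scaling between mice. *Fgfr1* took 86.4%, 86.2% and 88.0% of the 4 receptors per kilobase in *Egr1*+/+ mice and 84.5%, 82.7% and 83.9% among the mutants. *Fgfr3* took 2.47%, 2.86% and 2.12% in *Egr1*+/+ mice and 4.70%, 3.46% and 3.84% among the mutants. Every mutant thus had a smaller share of *Fgfr1* (means 86.9 ± 1.0% and 83.7 ± 0.958%) and a larger share of *Fgfr3* (2.49 ± 0.368% and 4.00 ± 0.639%; SD, n = 3). The exact permutation test gave two-sided p = 0.1 for each of these receptors, the smallest possible, and 0.2 after Benjamini-Hochberg adjustment over the 4 shares. The shares of *Fgfr2* and *Fgfr4* overlapped, with p = 0.4 each in the same exact test and 0.4 after adjustment. The 4 shares of a mouse are parts of 1 whole, so the differences in *Fgfr1* and *Fgfr3* are not separate results. The means differed by -3.15 percentage points for *Fgfr1*, 1.51 for *Fgfr3*, 0.874 for *Fgfr4* and 0.766 for *Fgfr2*. The value of *Fgfr4* rests on few counts. The 4 receptors summed to 9.05, 10.6 and 10.5 CPM per kilobase in the controls, and to 9.90, 9.01 and 9.05 CPM per kilobase in the mutants, so the sums overlapped.

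**Figure D3:**
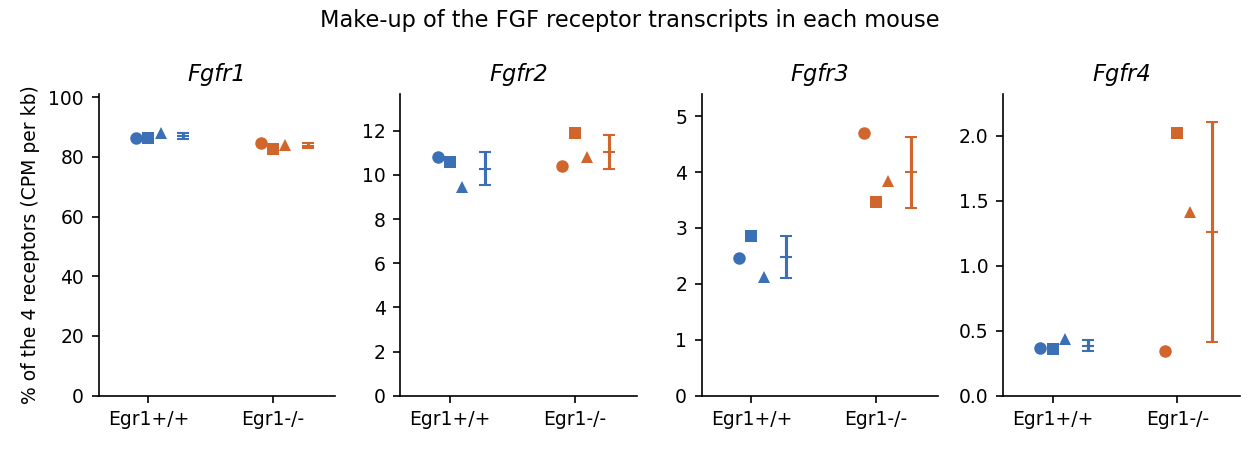
Share of each FGF receptor gene among the 4 receptors in each mouse, in percent of the summed CPM per kilobase, with each panel on its own axis from 0, a symbol for each mouse and a tick and line for the mean and SD (n = 3). *Fgfr1* held between 82.7% and 88.0% in all 6 mice, and the genotypes are apart in the panels of *Fgfr1* and *Fgfr3*.

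*Klb* (ENSMUSG00000029195.10; chr5:65348314-65384007, plus strand) had 42.3, 49.3 and 51.3 CPM in *Egr1*+/+ mice and 40.7, 37.7 and 44.9 CPM in *Egr1*-/- mice. The groups overlapped, and the log2 fold change was -0.21 (standard error 0.122, 95% interval -0.49 to 0.062, adjusted p = 0.591 by edgeR). The ratio of *Klb* to *Fgfr1*, both per kilobase, was 1.19, 1.19 and 1.22 in *Egr1*+/+ mice and 1.07, 1.11 and 1.30 among the mutants. The mutants spread to both sides of the controls (exact permutation test, two-sided p = 0.7). The 10 markers of mature adipocytes, the cells in which *Klb* is best known, together had 7358 to 8238 CPM in the controls and 5859 to 6817 CPM in the mutants. *Fabp4* alone held 3928 of the 7663 CPM that the controls had on average. Of the 10 markers 7 were lower and 3 higher, around a median of -0.17 on the log2 scale, with *Cfd* at -0.67 and *Adipoq* at -0.41, and *Lipe* at 0.36, *Pnpla2* at 0.27 and *Plin1* at 0.11. Their part in the *Klb* values was not tested.

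Profiles most like those of *Klb*, *Fgfr1* and *Fgf2*, the first 3 genes per kilobase of merged exons, were sought by the root mean square difference of centred log2 CPM over the 6 mice, among 9772 genes of at least 5 CPM. *Klb* was nearest to *Arsk* (0.0307) and *Eef2k* (0.0426), and *Fgfr1* to *Rnf130* (0.0238) and *Sra1* (0.0245 on the log2 scale). *Fgf2* was nearest to *Lpar1* (0.115), a receptor of lysophosphatidic acid, and to *Agtr1a* (0.118), an angiotensin II receptor. The median difference over all genes was 0.233 from *Klb*, 0.217 from *Fgfr1* and 0.430 from *Fgf2*.

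The rest of the pathway was read from lists of genes by role. Among the other 13 secreted FGFs, 3 were tested and *Fgf22* had no count in any mouse. *Fgf18*, a ligand known in bone and lung, had 1.34, 0.666 and 1.44 CPM in *Egr1*+/+ mice and 0.840, 0.323 and 0.679 CPM in *Egr1*-/- mice, with a log2 fold change of -0.90 (standard error 0.454, adjusted p = 0.530 by edgeR). *Fgf16* and *Fgf9* had log2 fold changes of -0.57 and -0.27, with adjusted p-values of 0.744 and 0.886. Over the 6 mice, *Fgf5* had 39 counts, *Fgf6* 34, *Fgf4* 18 and *Fgf23* 16. The genotypes overlapped in each of these 4 genes. The 4 genes of the intracellular FGF homologous factors, which bind sodium channels and not receptors, were tested, and their log2 fold changes ran from -0.25 in *Fgf12* to 0.32 in *Fgf14*. *Fgf11* had 5.03 ± 1.4 and 4.48 ± 0.650 CPM (SD, n = 3) and a log2 fold change of -0.17, and *Fgf13* one of -0.15.

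Of 8 co-receptors and binding proteins, 7 were tested, 6 of them lower and 1 higher in the mutants, around a median of -0.16 on the log2 scale and none past the adjusted threshold. *Flrt2* and *Ncam1*, membrane proteins that can bind FGF receptors, both had a log2 fold change of -0.48 (standard errors 0.198 and 0.207, adjusted p = 0.437 and 0.450 by edgeR). *Fgfrl1*, a receptor without a kinase domain, had 24.5 ± 4.35 and 22.0 ± 2.69 CPM per kilobase of merged exons (SD, n = 3). On this scale it was above *Fgfr1* by a factor of 2.32 to 3.23 in all 6 mice. The order rests on the length, since without it *Fgfrl1* averaged 68.2 and 61.2 CPM and *Fgfr1* 86.2 and 77.0 CPM in controls and mutants. *Kl*, the co-receptor of FGF23, had 0.0701 ± 0.0567 and 0.0630 ± 0.00698 CPM per kilobase.

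Heparan sulfate proteoglycans and the enzymes that build or trim their chains had 21 of 23 genes tested, 12 lower and 9 higher, around a median of -0.12 on the log2 scale. None passed the adjusted threshold in edgeR. At an unadjusted p under 0.05, 6 were lower and 0 higher, against 5.6% and 5.06% of all genes tested. In 6 genes every mutant was below every control, as in 8.1% of all genes, and in 1, the basement membrane proteoglycan *Hspg2*, every mutant was above (221 to 225 CPM in the controls, 240 to 323 CPM in the mutants), as in 8.15% of all genes. *Sulf1*, which removes 6-O-sulfates from heparan sulfate, had 46.1, 46.6 and 50.5 CPM in *Egr1*+/+ mice and 38.2, 27.8 and 28.3 CPM in *Egr1*-/- mice, with a log2 fold change of -0.60 (standard error 0.141, adjusted p = 0.205 by edgeR). The surface proteoglycans *Sdc2* and *Gpc3* had log2 fold changes of -0.50 and -0.55 (standard errors 0.120 and 0.144, adjusted p = 0.214 and 0.229 by edgeR). These 3 genes passed in DESeq2, with adjusted p-values of 0.0129 for *Sulf1*, 0.0422 for *Sdc2* and 0.0273 for *Gpc3*, beside 1.88% of all genes that DESeq2 called lower.

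All 27 genes of the intracellular relay from FRS2 to ERK and AKT were tested, 17 were higher and 10 lower, and their log2 fold changes lay between -0.22 and 0.46 around a median of 0.044. Among them, the adaptor *Crkl* had a log2 fold change of 0.46 (adjusted p = 0.373 by edgeR) and *Rps6ka3*, a kinase below ERK, one of -0.22 (adjusted p = 0.595).

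Among feedback inhibitors of the pathway, which ERK signalling itself switches on, 11 of 12 were tested, 7 lower and 4 higher, around a median of -0.12 on the log2 scale. *Spry4* had 20.0 ± 4.68 and 14.6 ± 1.9 CPM (SD, n = 3), and its log2 fold change, -0.46 with a standard error of 0.181, had an adjusted p of 0.411 by edgeR. *Spred1* and *Dusp4* had log2 fold changes of -0.22 and -0.59 (adjusted p = 0.551 and 0.591), and for *Dusp4* the difference rested on *Egr1*+/+ replicate 3, at 30.5 CPM, without which it was -0.02. Of 12 ERK-responsive transcription factors, 10 were tested, 5 higher and 5 lower, with a median of 0.051. *Egr3*, a relative of *Egr1*, had 0.786, 0.766 and 0.650 CPM in *Egr1*+/+ mice and 1.14, 2.1 and 1.23 CPM in *Egr1*-/- mice. Its log2 fold change, 1.02 with a standard error of 0.346, had an adjusted p of 0.331 by edgeR. *Junb* and *Ier3* had log2 fold changes of 0.52 and 0.45 (adjusted p = 0.455 and 0.578).

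**Figure D4:**
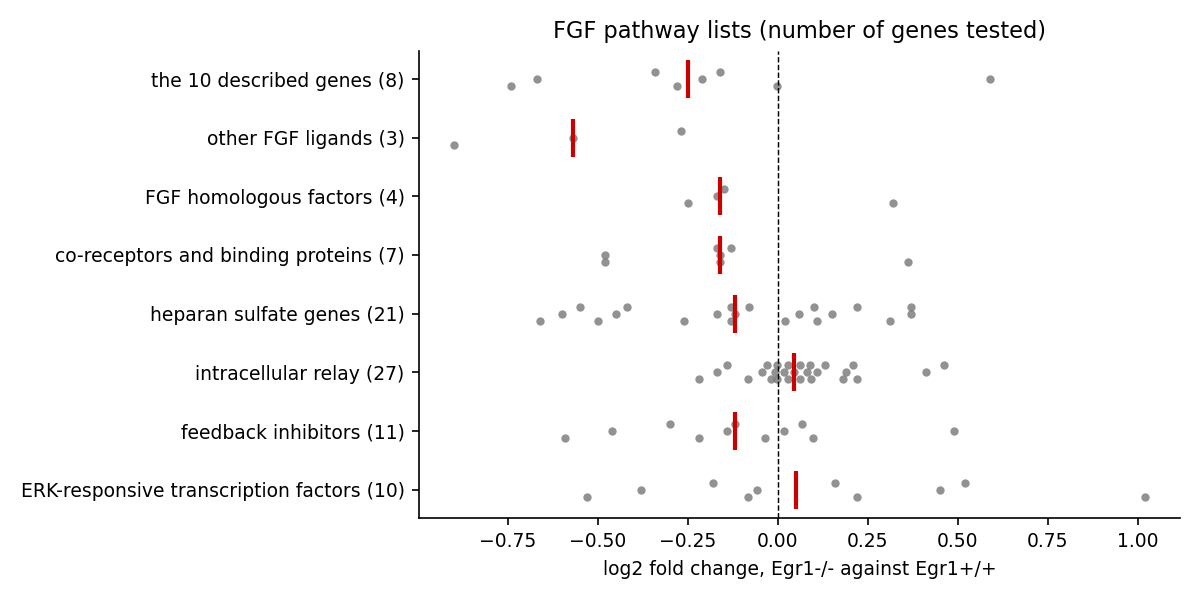
Log2 fold change of each tested gene in the FGF pathway lists, *Egr1*-/- against *Egr1*+/+ mice, with a grey point for each gene and a red mark at the median of the list. The number of genes tested is given in brackets, and the points of the intracellular relay lie within -0.22 and 0.46.

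The fat pads hold several kinds of cells, and in such bulk RNA fewer cells of a type and less RNA per cell cannot be told apart. Markers of adipose progenitors, fibroblast-like stromal cells that can become adipocytes, were lower along with the ligands. Of 10 such markers 8 were lower and 7 of these had an unadjusted p under 0.05, against 5.6% of all genes tested, with log2 fold changes of -0.88 in *Dcn*, -0.71 in *Cd34* and -0.62 in *Col1a1*. The other two markers were higher, *Icam1* with a log2 fold change of 0.31 and an unadjusted p under 0.05, and *Dlk1* with one of 0.23. No gene of this or the other marker lists had an adjusted p under 0.05 in edgeR. DESeq2 called 5 of the 10 progenitor markers lower and, in the other lists, 2 of 6 macrophage, 2 of 6 Schwann cell and 2 of 10 mature adipocyte markers lower, and 6 of 7 beige adipocyte markers and 1 of 6 mural cell markers higher, beside 1.88% of all genes called lower and 1.01% called higher. None of the 10 was at 0 in any mouse, and the 10 together had 1605 to 1707 CPM in *Egr1*+/+ mice and 920 to 1272 CPM in *Egr1*-/- mice. *Pdgfra*, one of them, had 97.0 ± 8.06 and 69.7 ± 8.99 CPM (SD, n = 3). Set against *Pdgfra* in the same mouse, *Fgf2* was at 0.340, 0.371 and 0.390 in *Egr1*+/+ mice and at 0.313, 0.405 and 0.261 among the mutants, so that the genotypes overlapped. The same ratio overlapped for *Fgf1* and *Fgf7*, and for *Fgf10* it was higher in every mutant (0.158, 0.159 and 0.153) than in every control (0.150, 0.121 and 0.138). These ratios were chosen after the values had been seen.

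Macrophage markers were lower in the mutants too, in 6 of 6 genes, with sums of 232 to 324 CPM in *Egr1*+/+ mice and 163 to 223 CPM in *Egr1*-/- mice, and Schwann cell markers summed to 236 to 337 and 162 to 209 CPM. Beige adipocyte markers went the other way, with sums of 525 to 672 CPM in *Egr1*+/+ mice and 928 to 1548 CPM in *Egr1*-/- mice. Among them, *Dio2* and *Ucp1* had log2 fold changes of 1.91 and 1.22. Lymphocyte markers were higher too, in 7 of 7 genes, with a median of 0.51 on the log2 scale. Their sums overlapped, with 401 to 436 CPM in the controls and 307 to 664 CPM in the mutants. Endothelial markers, with sums of 426 to 513 and 390 to 576 CPM, and mural cell markers, with 451 to 648 and 378 to 581 CPM, overlapped between the genotypes. Mammary epithelial markers, from cells that receive FGF7 and FGF10, were between 1.80 and 12.6 CPM in all 6 mice. The part of progenitors, macrophages, Schwann cells, lymphocytes and beige adipocytes in the values of the FGF genes was not tested.

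**Figure D5:**
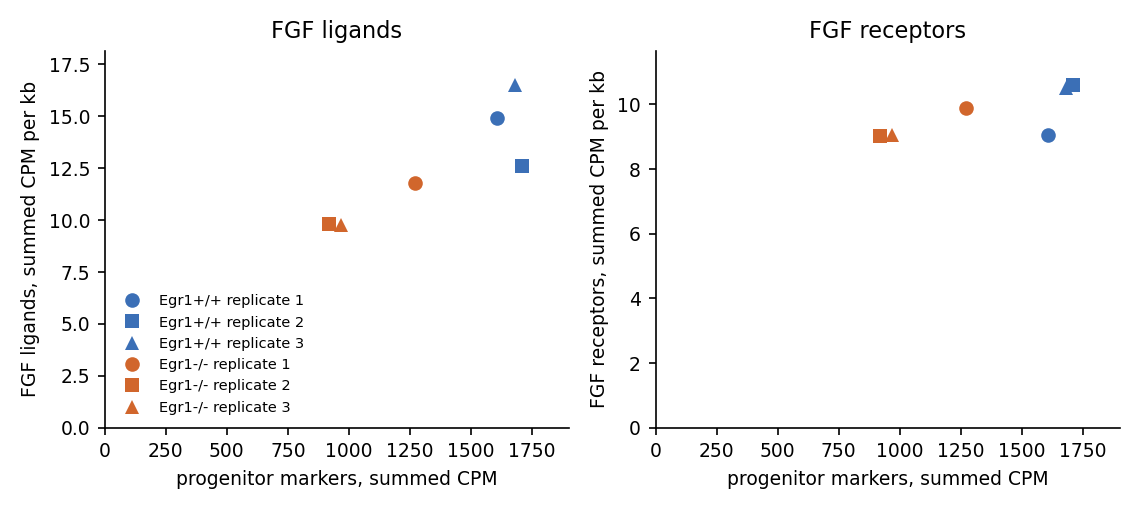
Summed level of the 5 ligand genes (left) and of the 4 receptor genes (right), in CPM per kilobase, against the summed CPM of 10 progenitor markers in each mouse. *Col1a1* and *Dcn* held 828 and 418 of the 1664 CPM of these markers on average in *Egr1*+/+ mice. The 3 *Egr1*-/- mice (orange) have 920 to 1272 CPM of progenitor markers and ligand sums between 9.77 and 11.8, below the 3 *Egr1*+/+ mice (blue), while the receptor sums overlap.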

How the data were processed

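The authors mapped the reads to GRCm38 with TopHat and Bowtie, guided by GENCODE M8, and deposited featureCounts counts per gene, 1 table per mouse, without normalization. The strand and multimapping settings are not given in the sources used here, and the paper and the sample records differ on whether the reads were paired. Genes were named through GENCODE M21 by Ensembl identifier without version, which matched 46574 of 47069. Counts were tested in R 4.3.3 with edgeR 4.0.16 (TMM, filterByExpr, quasi-likelihood test without covariate, Benjamini-Hochberg adjustment over all genes tested, threshold 0.05). Standard errors were derived from the F statistic, and 95% intervals used the moderated degrees of freedom. Log2 CPM had a prior count of 2. DESeq2 1.42.0 and limma 3.58.1 were used for other fits, and scipy 1.17.1 for exact permutation tests. The code was tested on simulated data.

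All 10 FGF genes were named, with *Egr1*, up to 3 genes of lowest p in each list, every FGF ligand with 10 or more counts, and the nearest profiles of 3 genes. Other genes named (*Adipoq*, *Plin1*, *Fabp4*, *Lipe*, *Pnpla2*, *Icam1*, *Dlk1*, *Hspg2*, *Nudt6*, *Ctbp2*, *G630022F23Rik*, *Fgf13*, *Fgf22*, *Kl* and *Pdgfra*) were chosen after their values were seen. A gene that this rule names is not reported here. The FGF genes and the lists were chosen with earlier results of these data known.

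Depth, from 29661984 to 42357981 counts on genes, bears on the scarce genes, and floors cover counting error only. With 3 mice against 3, an exact two-sided permutation test cannot go below 0.1. Alternatives were other scalings, filters and tests, the replicate number as a block, and leaving out each mouse or the mitochondrially encoded genes.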

Additional observations from a re-analysis of the deposited data

How the results depend on the processing

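Over 15 alternatives, the log2 fold changes of *Fgf1*, *Fgf2*, *Fgf7*, *Fgf10*, *Fgfr1*, *Fgfr3* and *Klb* kept their sign, and 2 alternatives brought a gene past the threshold, *Fgf2* both times. Its log2 fold change was -0.67 in DESeq2 and -0.65 in edgeR without the filter on low counts (adjusted p = 0.0141 and 0.00266). It was the only gene called of the 8 tested in DESeq2, beside 372 of 12871 genes in all. Without the filter it was the only one called of the 10, beside 552 of 38261 genes in all. Over all alternatives its adjusted p ran from 0.00266 to 0.719. The value of *Fgfr2*, close to 0, turned to 0.012 without the filter and 0.0027 in limma-voom, and ran from -0.054 to 0.060 with 1 mouse left out. Genes called in all numbered 372 in DESeq2, 552 without the filter, 79 with total counts, 1 in limma-voom and 0 with upper-quartile factors, against 3, and between 0 and 59 with 1 mouse left out, 59 of them without *Egr1*-/- replicate 1. Of the 372 genes called in DESeq2, 130 were higher and 242 lower, of the 552, 243 and 309, and of the 79, 12 and 67. The cause of these differences was not tested.

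Total counts without TMM factors moved the median of all genes to -0.15. List medians were then -0.41 for the FGF genes, -0.32 for co-receptors, -0.25 for heparan sulfate genes, -0.098 for the relay, -0.31 for feedback inhibitors, -0.10 for ERK-responsive factors and -0.31 for mature adipocyte markers. Relative to all genes the relay and the ERK-responsive factors both stood at 0.05. With 1 mouse left out, medians ran from -0.27 to -0.16 for the FGF genes (-0.16 without *Egr1*+/+ replicate 3), from -0.24 to 0.045 for feedback inhibitors (-0.24 without *Egr1*-/- replicate 1, 0.045 without *Egr1*-/- replicate 2), from 0.051 to 0.16 for ERK-responsive factors (0.16 without *Egr1*+/+ replicate 2), from 0.0096 to 0.073 for the relay (0.0096 without *Egr1*+/+ replicate 1), from -0.43 to -0.094 for co-receptors, from -0.17 to 0.025 for heparan sulfate genes (0.025 without *Egr1*+/+ replicate 2), from -0.24 to -0.081 for mature adipocyte markers (-0.081 without *Egr1*-/- replicate 2) and from -3.04 to 0.78 for skeletal muscle markers (-3.04 without *Egr1*-/- replicate 3, 0.78 without *Egr1*+/+ replicate 2). Mesothelial markers had a median of 1.01 without the filter, which let in more of them. The differences in receptor share ran from -3.57 to -2.58 percentage points for *Fgfr1* and from 1.16 to 1.79 for *Fgfr3* with 1 mouse left out.

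Blocking on the replicate number left 0 genes called and 1909 with an unadjusted p under 0.05, against 1884. The log2 fold changes were -0.67 for *Fgf2* and -0.82 for *Fgf7*, with adjusted p-values of 0.298 and 0.291, and no FGF gene changed its call. After removal of genotype means, same-numbered mice had correlations of -0.0888, 0.106 and -0.126 across genes, so they did not clearly deviate together. The labels do not give the numbers of the littermates, and these correlations cannot decide whether a number pairs mice.

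The depth left *Fgf21* and *Fgfr4* untested, and a difference in them smaller than a few counts could not be seen.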
